A study of Cricetulus griseus with 3 samples.

Results

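The genes described here make, carry or remove reactive and foreign compounds: aldo-keto reductases (Akr), glutathione S-transferases (Gst), cytochromes P450 (Cyp, without Cyp51), aldehyde and alcohol dehydrogenases (Aldh, Adh), redox enzymes (peroxiredoxins, glutathione peroxidases, thioredoxins, superoxide dismutases, catalase, heme oxygenases and glutamate-cysteine ligase) and ATP-binding cassette (ABC) transporters. Members were the spots of a mouse cDNA array whose annotation gave a single gene symbol of these families. The rule took 89 of the 16928 tested spots, which stood for 69 of the 8146 genes with a single symbol. It used names alone and no measured value, though the members and the gene lists below were chosen with earlier results of these data known. No UDP-glucuronosyltransferase and no Nqo gene had a spot of its own by this rule.

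S-1 is a stable line of Chinese hamster ovary (CHO) cells that overexpresses the γ-secretase subunits PEN2, APH1-a2, PS1 and NCT and was kept under G418, puromycin, zeocin, hygromycin and blasticidin. It came through an intermediate line made from the parental CHO cells, and the study marks APP, the amyloid precursor protein, as overexpressed in it too. It received 0.05% DMSO for 24 h. The untransfected parental CHO cells received 10 µM of the γ-secretase inhibitor DAPT in 0.05% DMSO for 24 h and grew without the selection drugs. RNA of 1 culture of each kind was hybridised together on each of 3 arrays, with S-1 in Cy3 on arrays 1 and 2 and in Cy5 on array 3. The line, the transgenes, the drugs and the inhibitor thus differed together, and their parts in a ratio cannot be told apart. Each value is a log2 ratio with S-1 on top and DAPT-treated CHO below, so that a negative one means less signal in S-1 cells. Ratios carry no level, and the depth of the arrays is unknown here. The number of arrays limits the precision. Less RNA of a gene and a poorer match of a mouse clone to hamster cDNA were not measured separately.

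Cells handle reactive compounds in stages. P450 enzymes, aldo-keto reductases and the dehydrogenases oxidise or reduce a carbonyl, sterol or drug, the transferases join it to glutathione, and ABC transporters such as those of the Abcc group pump the conjugate out. Superoxide dismutases remove superoxide and catalase removes hydrogen peroxide. Peroxiredoxins and glutathione peroxidases reduce peroxides with electrons from thioredoxin or glutathione. Many of the genes are induced by the transcription factor Nrf2, encoded by Nfe2l2. These families also hold enzymes of retinoid, steroid and bile acid metabolism.

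The direction of the ratios was read from the transfected subunits and is that of the study's lists of changed clones. With the listed fold changes halved, 2355 of these clones could be paired to 1 spot by value in this direction and 154 with the sign turned. The clones of Psenen (PEN2) and Aph1a were at 3.09 and 2.02 and positive on all 3 arrays, the dye-swapped one included, and that of Ncstn (NCT) was at 0.38 and did not pass the test. The 3 arrays agreed across spots, with Pearson's r between 0.878 and 0.962. The spots of an array are no independent replicates of each other. Spots were of different kinds by their place in the print-tip blocks. The letters that open clone names marked H clones (15360 spots), P clones (960) and N clones (128), and 480 spots lay where the study's clone lists hold none (called unlisted spots). Of the unlisted spots, 78.8% were higher in S-1 cells past the threshold, with 1.56 as the median log2 ratio. Of the 89 spots described here, 78 were H clones, 6 were P clones and 5 were unlisted.

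In gene values, the mean over all spots of a gene, 9 of the 69 genes had more signal in S-1 cells and 10 had less (limma, adjusted p under 0.005 over all genes), while 50 did not pass. The shares of 13.0% and 14.5% stand beside 12.4% higher and 10.3% lower of all genes, so that neither count departs much from the background. The median log2 ratio was 0.03 over the 69 genes and 0.01 over all genes. The lower ones were led by the carbonyl-reducing and aldehyde-oxidising enzymes Akr1c19, Aldh1a1 and Akr1c13. The highest ones were the P450 genes Cyp27a1 and Cyp7a1 and the transporter gene Abca1, and 5 of the 9 that rose had an unlisted spot. With the unlisted spots left out, 66 genes remained, of which 5 rose and 11 fell, beside a background of 9.26% and 10.6%. No passing gene changed sign between arrays (19 of 19), as the test all but requires. The sign was likewise shared by the 3 arrays in 25 of the 50 that did not pass. Over the 69 genes it was shared in 44 (63.8%), beside 71.2% of all genes.

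**Figure D1:**
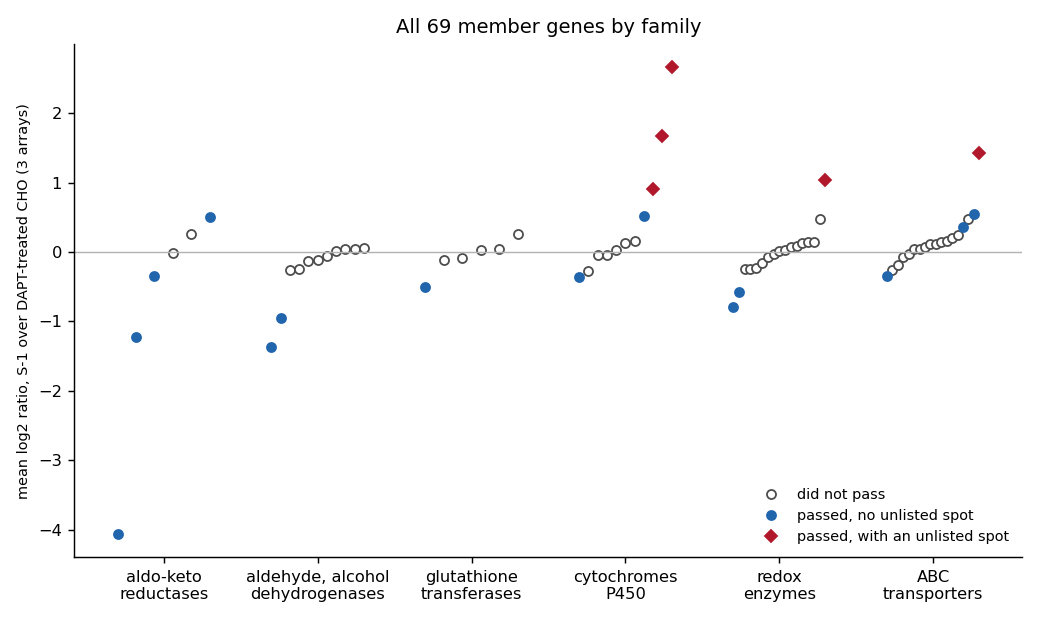
Log2 ratio, S-1 over DAPT-treated CHO (vertical axis, mean of 3 arrays) of each of the 69 genes, as 1 point per gene in 6 families and sorted within each family. Filled points passed the threshold (diamonds: genes with an unlisted spot), open points did not. The aldo-keto reductases reach down to −4.06 (Akr1c19) and the P450 genes up to 2.66 (Cyp27a1), while most genes lie near 0.

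By spot, 11 of the 89 were higher and 10 lower, against 9.68% and 8.52% of all tested spots. Among the 78 H clones, 5 rose (6.41%) and 9 fell (11.5%), where 6.76% of all H clones rose and 8.52% fell. Of the 6 P clones 1 rose and 1 fell, beside 19.3% and 12.8% of all P clones. All 5 unlisted spots rose, as most spots of that kind did.

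Aldo-keto reductases reduce aldehydes and ketones with NADPH, and those of the Akr1c group act on steroids, prostaglandins and foreign ketones. Of 6 such genes, 3 fell, 1 rose and 2 did not pass, where 10.3% of all genes fell and 12.4% rose. Akr1c19 had log2 ratios of −4.13, −4.14 and −3.92 on arrays 1 to 3. Its mean was −4.06 ± 0.12 (SD, n = 3, adjusted p = 1.32e-04, limma), the lowest of all 8146 genes, and its signal was 16.7-fold lower in S-1 cells. Akr1c13 was at −1.35, −1.10 and −1.21, with a mean of −1.22 ± 0.13 (adjusted p = 2.08e-04), 2.33-fold lower. The arrays of each gene lay close together, and both calls held under every alternative run, each array left out included.

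Akr1c14, a hydroxysteroid dehydrogenase, was measured by 2 H clones that did not move alike. One was at −0.74, −0.72 and −0.65 on arrays 1 to 3 and passed (adjusted p = 4.80e-04), and the other was at 0.19, −0.05 and −0.06 and did not. The gene value of −0.34 ± 0.06 passed (adjusted p = 0.00368), and lost its call without array 1 (adjusted p = 0.0204) and without array 2 (adjusted p = 0.0392). Akr1cl, a gene of related sequence, was the 1 that rose, at 0.35, 0.54 and 0.64 and a mean of 0.51 ± 0.15 (adjusted p = 0.00358), with adjusted p-values of 0.00695 without array 1 and 0.0263 without array 2. Thus all 3 genes of the Akr1c group proper were lower and the related Akr1cl higher. Close relatives of this group can bind each other's labelled cDNA, which was not measured here.

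The general aldehyde reductase Akr1a1 stayed at −0.01 over 3 H clones (95% interval −0.15 to 0.12). Akr1b10, a relative of aldose reductase, was at 0.41 and 0.56 with S-1 in Cy3 and at −0.17 with S-1 in Cy5, with a mean of 0.27 that did not pass (adjusted p = 0.204).

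Aldehyde dehydrogenases oxidise aldehydes to acids, and Adh5 removes formaldehyde bound to glutathione. Of 11 genes in this group, 2 fell and 9 did not pass at the adjusted p of 0.005 (limma). Among all genes 10.3% fell and 12.4% rose. Aldh1a1, which makes retinoic acid from retinaldehyde, had the next lowest gene value of the 69 after Akr1c19, at −1.37 ± 0.02 (SD, n = 3, adjusted p = 1.36e-04). Its 2 H clones were far apart. One was at −2.54, −2.53 and −2.69 on arrays 1 to 3, a mean of −2.59 or 6.01-fold lower signal in S-1 cells (adjusted p = 1.17e-04 over spots). The other was at −0.21, −0.16 and −0.10 (adjusted p = 0.0556). The gap between the clones was 2.32, 2.37 and 2.59 on the 3 arrays, many times its SD of 0.14, and the mean of both clones describes neither.

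Aldh3b1, which oxidises lipid aldehydes, was at −0.84, −0.85 and −1.14 on arrays 1 to 3, with a mean of −0.94 ± 0.17 (adjusted p = 7.35e-04, limma). Its signal was 1.92-fold lower in S-1 cells, and the call held with each array left out. The mitochondrial enzyme genes Aldh2 (0.04, 95% interval −0.10 to 0.18) and Aldh1b1 (−0.25, adjusted p = 0.00872) did not pass. Neither did Aldh3a2, which acts on fatty aldehydes (−0.26, adjusted p = 0.0117), nor Aldh1a2, which also makes retinoic acid (−0.05, 95% interval −0.16 to 0.05, P clone). The remaining 5 genes, Adh5, Aldh16a1, Aldh1l1, Aldh7a1 and Aldh9a1, lay between −0.13 and 0.05.

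Other genes of retinoid metabolism were mostly near 0. Cyp26a1, the P450 that degrades retinoic acid, was at −0.33, −0.36 and −0.16 (adjusted p = 0.0129, limma) and did not pass. Of 17 listed genes of retinoid binding and metabolism outside the families, 6 had a value, and 1 was higher and 5 did not pass. Of all genes, 12.4% were higher. The 1 that rose was Rbp4, the plasma carrier of retinol, at 2.21 on an unlisted spot. The retinaldehyde-reducing Dhrs3 (0.07), the retinol dehydrogenase genes Rdh10 (0.07) and Rdh11 (−0.16), the receptor gene Rarb (0.03) and the uptake gene Stra6 (0.05) did not pass.

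Glutathione S-transferases join glutathione to electrophiles. Of 6 genes, 1 fell and 5 did not pass, beside 10.3% lower and 12.4% higher of all genes. Gstm5, of the mu class, was at −0.47, −0.60 and −0.45 on arrays 1 to 3, with a mean of −0.51 ± 0.08 (SD, n = 3, adjusted p = 0.00142, limma). Without array 1 its adjusted p was 0.0105 and without array 2 it was 0.0144. The other mu class genes Gstm4 (−0.12) and Gstm7 (−0.09), the omega class Gsto1 (0.04) and Gstcd (0.02) stayed within 0.12 of no change. Gsta4, which acts on aldehydes from oxidised lipids, was at 0.33, 0.18 and 0.27 and did not pass (adjusted p = 0.0115).

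The genes that make and use glutathione upstream did not move as a block. Gclc, the catalytic subunit of the rate-limiting step of glutathione synthesis, was at −0.23, −0.16 and −0.07 over 2 H clones (adjusted p = 0.0594, limma). Gss, which completes that synthesis and was on a separate list of Nrf2 targets, rose, with a mean of 0.68 ± 0.10 (SD, n = 3, adjusted p = 7.94e-04), with adjusted p-values of 0.00533 without array 1 and 0.00689 without array 2. Abcc1, which exports glutathione conjugates, had 4 H clones between −0.13 and 0.00, and its gene value of −0.07 had a narrow 95% interval of −0.18 to 0.03.

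Among 11 cytochromes P450, 4 genes rose, 1 fell and 6 did not pass (adjusted p of 0.005, limma). The background of all genes was 12.4% higher and 10.3% lower. The 3 largest rises were in enzymes of cholesterol breakdown, and each of the 3 genes had an unlisted spot. Cyp27a1, a mitochondrial sterol hydroxylase, was at 2.40, 2.62 and 2.96 on arrays 1 to 3 on its only spot, an unlisted one. Its mean of 2.66 ± 0.28 (SD, n = 3, adjusted p = 1.57e-04) was the highest of the 69 genes and the 20th of all genes, a 6.32-fold higher signal in S-1 cells. Cyp7a1, the rate-limiting enzyme of bile acid synthesis, was at 2.34, 2.53 and 2.97 on an unlisted spot and at 0.59, 0.77 and 0.80 on a P clone. Both spots passed, with adjusted p-values of 1.92e-04 and 9.18e-04 over spots. They differed in size by 1.89 on average, and the P clone alone stood for a 1.65-fold higher signal.

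Cyp46a1, which hydroxylates cholesterol in brain, went both ways. Its unlisted spot was at 2.07, 2.17 and 2.49 on arrays 1 to 3 (adjusted p = 1.35e-04 over spots, limma) and its P clone at −0.49, −0.38 and −0.43 (adjusted p = 0.00215). It was the 1 gene of the 69 with spots past the threshold in opposite directions. The gene value of 0.90 ± 0.12 counted as higher, and as lower with the unlisted spots left out (−0.44, adjusted p = 0.00192). The 2 spots carried the same mRNA accession in the annotation.

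The further enzymes of oxysterol breakdown, measured by H clones, did not follow Cyp27a1. Cyp39a1, which hydroxylates the oxysterol that Cyp46a1 makes, was at −0.43, −0.36 and −0.28, a mean of −0.36 ± 0.08 (SD, n = 3, adjusted p = 0.00401, limma). Its adjusted p was 0.0324 without array 1 and 0.0353 without array 2, and in the fit over spots its only spot was just short of the threshold (adjusted p = 0.00501). Cyp7b1, another oxysterol hydroxylase, was at 0.03, 0.17 and 0.26 and did not pass (adjusted p = 0.0872).

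Cyp17a1, which leads to androgen precursors, rose on an H clone, at 0.49, 0.49 and 0.58, with a mean of 0.52 ± 0.06 (SD, n = 3, adjusted p = 0.00103, limma). Its adjusted p was 0.00883 without array 1 and 0.0112 without array 2. Cyp11a1, which opens steroid synthesis by cutting the side chain of cholesterol, had H clones at −0.17 and 0.09 and did not pass. The P450 genes Cyp1b1 (−0.04), Cyp2s1 (0.13) and Cyp2c23 (0.03) did not pass either, and the 95% interval of Cyp1b1 was −0.18 to 0.10.

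The rises on unlisted spots stood among others of the same kind. Of 15 listed genes typical of liver, where Cyp7a1 and Cyp27a1 are known for bile acid synthesis, 10 had a value. Of these 7 rose, Cyp7a1 itself included, and 1 fell, beside 12.4% higher and 10.3% lower of all genes. Each of the 7 that rose had an unlisted spot, and the median of the list was 1.37. With those spots left out, 8 genes had a value, of which 3 rose and 1 fell around a median of 0.20. The background was then 9.26% higher and 10.6% lower. Those that rose were Hnf4a (1.08) and Cyp7a1 (0.72) on P clones and Apoa1 (0.34) on an H clone. Apob (0.25), Fga (0.14), Ttr (0.02) and Apoa4 (−0.04) did not pass. Alb, the albumin gene, was the 1 that fell, at −0.36 on an H and a P clone. Its adjusted p-values were 0.0209 without array 1 and 0.033 without array 2 (limma). What the unlisted spots measured was not tested.

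The measured partners of the P450 enzymes and of the receptors that induce them lay mostly below 0. The listed receptor genes Ahr, Nr1i2 and Nr1i3 and the electron donor gene Por had no value. Of 14 listed genes 8 had a value, and 1 fell and 7 did not pass, beside 10.3% of all genes that fell. The median of the list was −0.28 beside 0.01 for all genes, and 6 were lower and 1 higher at an unadjusted p under 0.05. Without array 3, 5 passed as lower and 1 as higher, and without array 2 none passed. The share of all genes at the unadjusted p or without an array was not counted, so these counts have no background. The gene that fell was Rxra, a partner of many nuclear receptors, at −0.69 ± 0.03 on a P clone (SD, n = 3, adjusted p = 3.58e-04, limma). Its adjusted p was 0.00572 without array 2. Of its relatives, Rxrb was at −0.32 and did not pass (adjusted p = 0.0052, limma). Rxrg went the other way, at 0.21, 0.44 and 0.36 on a P clone, and did not pass either (adjusted p = 0.00837, limma). The electron donor genes Cyb5a (−0.32), Cyb5b (−0.24) and Cyb5r3 (−0.32) had negative values that did not pass at 0.005, with adjusted p-values of 0.00811, 0.0078 and 0.0133. Arnt, the partner of the aryl hydrocarbon receptor, was at −0.15 and Tiparp, a target of that receptor, at −0.10.

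**Figure D2:**
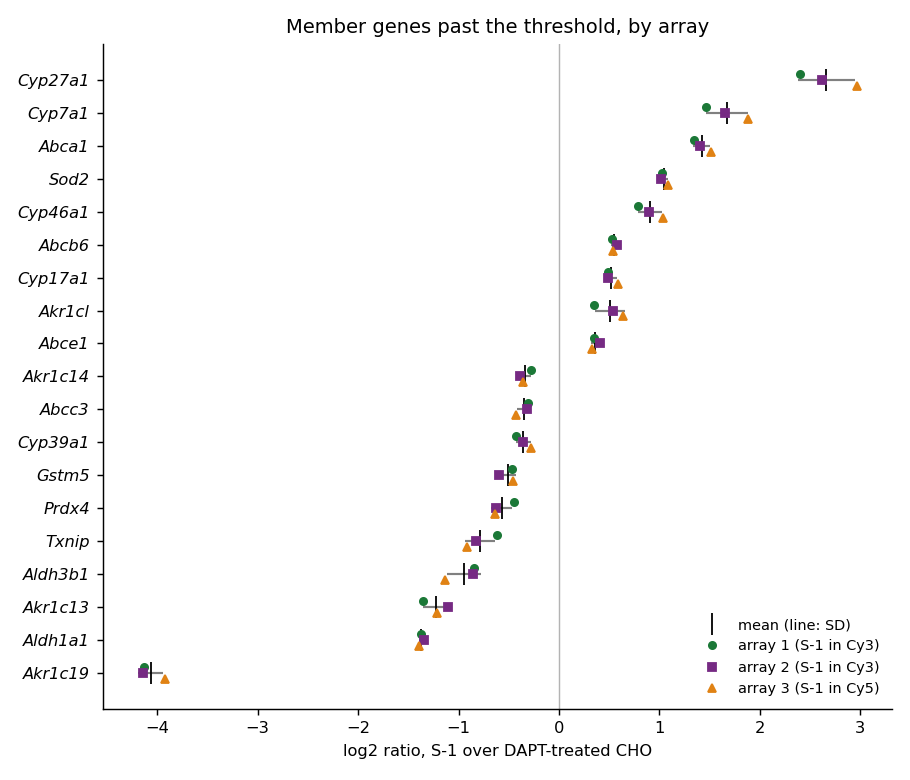
Log2 ratio on each array, S-1 over DAPT-treated CHO, on the horizontal axis of the 19 genes that passed the threshold, with 1 symbol per array, a tick for the mean and a line for the SD of the 3 arrays. Genes run from the highest mean (Cyp27a1 at 2.66) to the lowest (Akr1c19 at −4.06), and no gene has arrays on both sides of 0.

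Of 17 redox enzyme genes, 1 rose, 2 fell and 14 did not pass (adjusted p of 0.005, limma). These shares of 5.88% and 11.8% stand beside 12.4% higher and 10.3% lower of all genes. Txnip, whose product binds and inhibits thioredoxin, was at −0.62, −0.82 and −0.92 on arrays 1 to 3, with a mean of −0.79 ± 0.15 (SD, n = 3, adjusted p = 0.00103) and a 1.72-fold lower signal in S-1 cells. Its adjusted p was 0.00922 without array 2. Prdx4, the peroxiredoxin of the endoplasmic reticulum (ER), was at −0.45, −0.62 and −0.64, a mean of −0.57 ± 0.11 (adjusted p = 0.00141), with adjusted p-values of 0.00511 without array 1 and 0.014 without array 2. Sod2, the mitochondrial superoxide dismutase, was at 1.02, 1.02 and 1.09 on an unlisted spot, a mean of 1.04 ± 0.04 (adjusted p = 1.54e-04).

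The thioredoxins themselves did not pass. Cytosolic Txn1 was at 0.10, 0.15 and 0.19 (adjusted p = 0.0499, limma), and mitochondrial Txn2 at −0.15, −0.09 and −0.49 (adjusted p = 0.0814). With the dye as a coefficient Txn2 was at −0.30 and the cytosolic peroxiredoxin gene Prdx2 at −0.31. Array 3 alone had S-1 in Cy5, so that this fit gives its departure to the dye. Prdx2 was at 0.01, −0.13 and −0.56 on arrays 1 to 3. In the fit without a dye term the other peroxiredoxins did not pass, with cytosolic Prdx1 at −0.02 over 2 H clones, Prdx2 at −0.23 and mitochondrial Prdx3 at 0.14. Nor did the glutathione peroxidases, at 0.09 for cytosolic Gpx1, 0.03 for the secreted Gpx3, 0.01 for Gpx4, which acts on lipid peroxides, and 0.07 for Gpx8 of the ER. The 95% intervals of Prdx1 (−0.14 to 0.09), Gpx3 (−0.08 to 0.13) and Gpx8 (−0.03 to 0.18) were narrow, and that of Gpx4 (−0.24 to 0.25) was wider.

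Cytosolic Sod1 was at −0.27, −0.29 and −0.18 on arrays 1 to 3, a mean of −0.25 ± 0.06 (SD, n = 3, adjusted p = 0.0103, limma), short of the threshold. It passed with array weights (adjusted p = 0.00157), with the dye as a coefficient (adjusted p = 0.00158) and without array 3 (adjusted p = 0.00138). The peroxisomal catalase gene Cat was at 0.23 and 0.22 on arrays 1 and 2 and at −0.06 on array 3 (adjusted p = 0.2), and without array 3 it was at 0.23 with an adjusted p of 0.00374.

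Hmox1, the inducible heme oxygenase and a classic Nrf2 target, had the widest spread of the 69 genes. It was at 0.89 and 0.58 with S-1 in Cy3 and at −0.04 on array 3, where S-1 was in Cy5. The mean of 0.48 ± 0.47 (SD, n = 3) did not pass (adjusted p = 0.0842, limma, 95% interval 0.02 to 0.94). It passed without array 3 at 0.74 (adjusted p = 1.24e-04), with array weights at 0.64 (adjusted p = 0.00413) and with the dye as a coefficient at 0.35 (adjusted p = 0.00234). The constitutive Hmox2 was at −0.08 over 2 H clones and did not pass. Array 3 lay more than 0.3 away from the mean of arrays 1 and 2 in 8 of the 69 genes, and in 1244 of all 8146. Hmox1, Akr1b10, Prdx2, Gpx4, Txn2 and Abcb8, none of which passed, were lower on array 3, while Cyp7a1 and Cyp27a1, on unlisted spots, were higher. Array 3 differed from both others in dye as well as in culture, and these cannot be told apart.

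**Figure D3:**
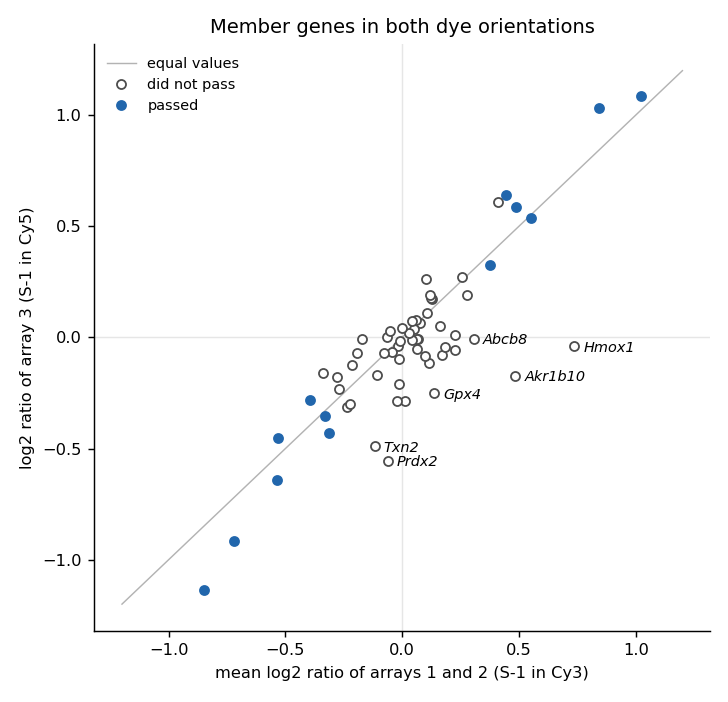
Log2 ratio on array 3 (vertical axis, S-1 in Cy5) against the mean log2 ratio of arrays 1 and 2 (horizontal axis, S-1 in Cy3) for 63 of the 69 genes, 1 point per gene, filled where the gene passed. The line marks equal values, the other 6 genes lie beyond the axes, and the named genes fall more than 0.3 below the line, with Hmox1 farthest, at 0.74 and −0.04.

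Few genes of the Nrf2 pathway outside the families passed. Of 10 listed genes of Nrf2 and its regulators, 6 had a value and none of them passed in limma, while at an unadjusted p under 0.05 there were 3 higher and 1 lower, and without array 3, 2 passed as higher and 1 as lower. Nfe2l2 was at 0.16 ± 0.02 over 4 spots (SD, n = 3, adjusted p = 0.029, limma), of which the unlisted one was at 0.69 and the 3 H clones lay between −0.05 and 0.04. With the unlisted spots left out it was at −0.02 (adjusted p = 0.802). Bach1, a repressor of the same target sites, was at −0.65 ± 0.26 (adjusted p = 0.00661). Of 23 listed Nrf2 targets, 17 had a value, of which 2 rose, 1 fell and 14 did not pass, around a median of 0.04 beside 0.01 for all genes, of which 12.4% rose and 10.3% fell. At an unadjusted p under 0.05 there were 7 higher and 5 lower, and without array 3, 5 passed as higher and 3 as lower. For both lists, the share of all genes at the unadjusted p or without array 3 was not counted, so these counts have no background. Besides Gss, the pentose phosphate enzyme gene Pgd was higher, at 1.30, on an unlisted spot. Fth1, the ferritin heavy chain, fell by 0.52 (adjusted p = 0.00358), and not without array 1 (adjusted p = 0.0229) or array 2 (adjusted p = 0.0256). With the unlisted spots left out, 16 of the targets had a value, of which 1 rose and 2 fell. The background of all genes was then 9.26% higher and 10.6% lower.

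The thiol enzymes around Prdx4 moved more often. Of 22 listed glutaredoxins, selenoproteins and protein thiol enzymes, 17 had a value, all on H clones, of which 10 fell, 2 rose and 5 did not pass. Their median was −0.48 beside 0.01 for all genes, where 10.3% fell. The list was chosen with earlier results of these data known, so that this comparison is no test of it. Most of those that fell act in disulfide formation in the ER. Ero1a, the oxidase that recharges protein disulfide isomerase, was at −1.83 ± 0.27 (SD, n = 3, adjusted p = 3.19e-04, limma) and the isomerase genes Txndc5, Pdia4, Pdia6 and Pdia3 were at −1.11, −0.79, −0.66 and −0.57. The retention factor Erp44 was at −0.52 and the membrane-bound Tmx3 at −0.37. Selenop, a secreted selenium carrier, Selenok of the ER and the cytosolic Nxn also fell. The 2 that rose, Glrx3 at 0.63 and Msrb1 at 0.54, act in the cytosol and nucleus. P4hb, the isomerase itself, was at −0.17 and did not pass. Without array 1 the genes that fell numbered 3 and without array 2 they numbered 2, while Ero1a and Txndc5 passed in both. Without array 3 there were 12, with Msra among them, and the share of all genes was not counted for these fits. Msra was at −2.10 and −1.86 on arrays 1 and 2 and at 1.47 on array 3, and did not pass over all arrays (adjusted p = 0.403, limma).

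ABC transporters use ATP to move lipids, drugs, conjugates and heme across membranes. Of 18 genes, 3 rose, 1 fell and 14 did not pass (adjusted p of 0.005, limma). The shares of 16.7% and 5.56% stand beside 12.4% higher and 10.3% lower of all genes. Abca1, which exports cholesterol and phospholipid, was at 1.34, 1.40 and 1.51 on arrays 1 to 3 on an unlisted spot, a mean of 1.42 ± 0.09 (SD, n = 3, adjusted p = 1.41e-04) or a 2.68-fold higher signal in S-1 cells. It had no other spot. Abcb6, a porphyrin transporter, rose on an H clone at 0.53, 0.58 and 0.54, with a mean of 0.55 ± 0.03 (adjusted p = 7.13e-04). Without array 1 and without array 2 its adjusted p was 0.00716 and 0.0101.

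Abce1, which splits ribosomes after translation and moves no substrate, had 3 H clones. Of these, 2 rose, at 0.63 and 0.57 (adjusted p = 9.16e-04 and 9.72e-04 over spots, limma), and 1 was at −0.12 and did not pass. The gene value was 0.36 ± 0.05 (SD, n = 3, adjusted p = 0.00278), and its adjusted p was 0.0229 without array 1 and 0.0317 without array 2. Of the related Abcf genes, which act in translation too, Abcf1 (0.16), Abcf2 (−0.02) and Abcf3 (−0.26, adjusted p = 0.00755) did not pass.

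Abcc3, which exports conjugates and bile acids, fell on 1 of its 2 H clones, at −0.81, −0.75 and −0.81 on arrays 1 to 3 (adjusted p = 3.02e-04 over spots, limma). The other clone was at 0.20, 0.11 and −0.05. The gene value of −0.35 ± 0.07 (SD, n = 3) passed (adjusted p = 0.00386) but not without array 1 (adjusted p = 0.0229) or array 2 (adjusted p = 0.0302).

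The drug efflux pumps on the array did not pass. Abcb1b, a P-glycoprotein gene, was at 0.09, 0.28 and −0.04 (95% interval −0.08 to 0.30, adjusted p = 0.276, limma), and Abcg2 was at 0.10, 0.15 and 0.18 on a P clone (adjusted p = 0.0503). Abcc1 was near 0, as given above. S-1 cells alone grew with puromycin and the other drugs. Among sterol transporters, Abcg5 was at 0.28, 0.54 and 0.61 on a P clone, just short of the threshold (adjusted p = 0.00615), and Abcg4 at 0.04. The transporters of mitochondria (Abcb8 at 0.20, Abcb10 at 0.04), peroxisomes (Abcd3 at 0.11) and lysosomes (Abcd4 at −0.18), the lung surfactant lipid transporter Abca3 (0.25) and Abcb5 (0.07) did not pass either.

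Spots of the same gene were a measure of how far a value depends on the clone. Of the 69 genes, 16 had 2 or more spots. In 10 of these the highest and the lowest spot lay within 0.29 of each other. In the other 6, Cyp46a1, Aldh1a1, Cyp7a1, Abcc3, Abce1 and Akr1c14, the gap was between 0.73 and 2.68, and each of these 6 genes passed as a gene value. The remaining 53 genes had 1 spot, so that no second clone with a single name was at hand for Akr1c19, Akr1c13, Aldh3b1, Txnip or Prdx4.

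**Figure D4:**
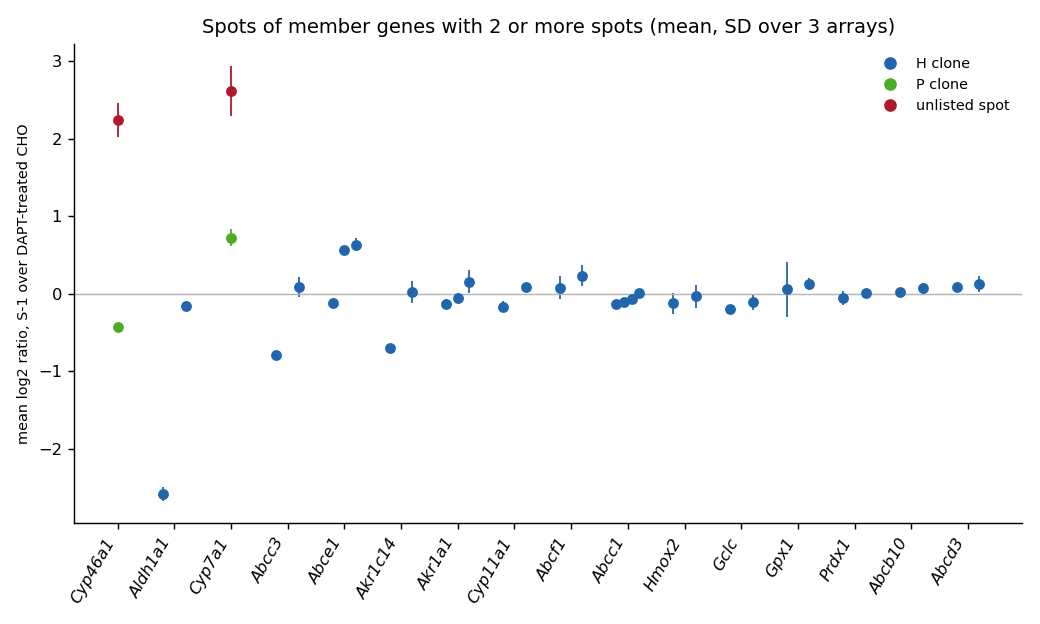
Log2 ratio, S-1 over DAPT-treated CHO (vertical axis, mean; bars, SD over 3 arrays) of every spot of the 16 genes with 2 or more spots, coloured by clone collection and ordered by the gap between the highest and the lowest spot. The gap is 2.68 for Cyp46a1, with its unlisted spot above 0 and its P clone below, and at most 0.29 for the 10 genes on the right.

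The 50 genes that did not pass had values between −0.28 and 0.48. In 46 of them the 95% interval lay within 0.5 of no change in either direction, and in Abcg5, Akr1b10, Hmox1 and Prdx2 it reached past that. The SD over the arrays ran from 0.00654 to 0.474 over the 69 genes, with a median of 0.0853 beside 0.0877 for all genes.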

How the data were processed

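RNA of S-1 and DAPT-treated CHO cells was compared on 3 two-colour arrays of mouse cDNA clones. The authors read the scans with GenePix Pro, left the background in, applied lowess within print-tip groups, and deposited a log2 ratio for every spot of an array. Intensities were not used here. Every column was read with S-1 on top, from the positive ratios of the transfected subunits and the study's clone lists, and the 736 spots at control positions without a gene name were left out. Each array pairs the cultures of an independent experiment.

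limma 3.58.1 in R 4.3.3 fitted 1 coefficient against 0 for all 16928 spots and, separately, for the mean of the spots of each of 8146 genes, with Benjamini-Hochberg adjustment over all of them and the study's threshold of 0.005. Intervals are limma's 95% intervals. The fit was tested on simulated data. Gene names came from the platform annotation. Collections came from spot positions, tied to clone letters through the study's clone lists. Of 2355 clones paired to 1 spot, 2354 lay at a position of their letter, which is no independent check. For pairing, a clone's fold change in the lists was halved and put on the log2 scale with its sign. It was then matched to a spot's mean within 1e-05, and those fold changes served nothing else. Tables and figures were made with Python 3.11.15, pandas 2.3.3 and Matplotlib 3.10.9.

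Genes are named as the largest up to 4 that passed in each direction and family, those fixed by name, and those with spots over 1 apart or opposed; list genes, and members given as lying near 0 or short of the threshold, were added after their values were seen. The members and lists were chosen with earlier results of these data known. The closing section gives the alternatives.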

Additional observations from a re-analysis of the deposited data

How the results depend on the processing

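Signs and calls of the 19 genes that passed held with arrays centred, scaled, quantile normalised or weighted, with a robust variance prior, with the dye as a coefficient, with spots of 1 gene joined by their median, and without array 3, where dye and S-1 effect cannot be told apart. In the main fit, genes higher and lower in S-1 cells numbered 9 and 10, and spots 11 and 10. At a threshold of 0.05, 14 genes were higher and 16 lower, and 19 spots lower. With the dye as a coefficient, 13 genes and 16 spots were higher, and 17 genes and 18 spots lower. With array weights, 12 genes and 15 spots were higher, and 16 genes and 15 spots lower. With the control spots included, 5 spots were lower, and gene values cannot change. With H clones alone, 4 genes and 5 spots were higher. Without the unlisted spots, a choice made after seeing the data, 5 genes and 6 spots were higher, and Cyp46a1 turned to −0.44. Leaving out each array in turn gave 5 to 14 genes higher, 4 to 15 lower, 3 to 20 spots higher and 3 to 16 lower. Without array 1, 9 of the 19 genes lost their call, and without array 2, 10 did. In these fits, as in that with the dye as a coefficient, 1 residual degree of freedom is left, and the cause was not tested. Akr1c19, Akr1c13, Aldh1a1 and Aldh3b1 kept their call in all 13 settings. Abca1, Cyp27a1 and Sod2 kept theirs in all 11 settings that held their spots, and Cyp7a1 in all 12.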

Other observations

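A further 20 spots carried several gene names, at least 1 of them from these families, and lay outside the rule. All were H clones, and of them 2 rose, 2 fell and 16 did not pass. A second clone bearing the name of Prdx4, shared with Stag1, was at −0.42, −0.62 and −0.52 on arrays 1 to 3 (mean −0.52, adjusted p = 0.00213 over spots, limma). A clone of the alpha class transferase gene Gsta3, shared with Tmem14a, was at −0.48, −0.66 and −0.51 (mean −0.55, adjusted p = 0.00167), while a further clone with these names and Cetn4 was at −0.09 and did not pass. A clone shared by Eid3 and Txnrd1, the gene of cytosolic thioredoxin reductase, was at 0.53, 0.66 and 0.34 (mean 0.51, adjusted p = 0.00489). Of 2 clones of Aldh18a1, which acts in proline synthesis, shared with Ptp4a1, 1 rose at 0.60 (adjusted p = 7.25e-04) and 1 was at 0.46 and did not pass. The 5 clones shared by Gstm1, Gstm2, Gstm3 and Gstm6 lay between −0.35 and −0.10, and none of them passed. Which of the names a shared clone measured was not tested. These spots were picked out after the values had been seen.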
